A study of Mus musculus with 15 samples.

Results

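The 10 genes described here mark tuft cells of the gut epithelium: Dclk1, Trpm5, Pou2f3, Il25, Alox5, Ptgs1, Avil, Il17rb, Gfi1b and Gnat3. The list is by name and uses no measured value, though it was chosen with earlier results of these data known. All 10 are among the 23420 gene symbols counted in 15 RNA sequencing libraries. The libraries come from primary ileal organoids, which are epithelial cultures grown from intestinal crypts of C57BL/6 mice and treated here at passage 2. Each of 5 groups has 3 libraries, a to c, and the organoids of every group spent 24 h in DMEM with 0.2% BSA. The vehicle group received no bile acids, and the other 4 groups received 1 designed bile acid pool each. H10 and H90 were modelled on human bile acids and M10 and M90 on mouse bile acids. The number gives the percentage of bile acids in the pool that carry a hydroxyl group on the sterol's carbon 12 (12HBA), 10% or 90%. The labels give neither the composition nor the dose of the pools, so a difference between pools is one between whole mixtures. Separate mice or cultures behind libraries a to c are not mentioned in the labels, so the p-values measure only the spread between these libraries. Organoids hold epithelium without the immune cells and nerves that surround tuft cells in the gut.

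Tuft cells are rare chemosensory cells of the epithelium that detect luminal signals with a cascade shared with taste cells. The G protein subunit gustducin (Gnat3) relays receptor signals, and the cation channel TRPM5 (Trpm5) opens when calcium rises inside the cell. POU2F3 is the transcription factor on which the lineage depends, and GFI1B is a repressor found in tuft cells. On activation the cells release the cytokine IL-25 (Il25), which acts on immune cells through a receptor that contains IL-17RB, and make lipid mediators with 5-lipoxygenase (Alox5) and cyclooxygenase 1 (Ptgs1). Advillin (Avil) is an actin-binding protein of the villin family, and DCLK1 is a microtubule-associated kinase widely used as a tuft cell marker.

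The libraries held 11245807 to 28989526 counts. Levels are in CPM, counts per 1000000 library counts, with totals scaled by the trimmed mean of M-values (TMM) unless they are called plain. Epithelial markers were abundant: 6 of them together had 12495 to 15390 plain CPM per library. The part of other cells in the results was not tested. Of 20 markers of other immune cells, 7 were at 0 in all 15 libraries, among them Cd3g, Cpa3 and Il7r, and the list summed to 35.2 to 46.0 plain CPM. Of 12 mesenchymal markers the sum was 10.4 to 13.8 plain CPM in vehicle and 9.44 to 11.2 in H10, against 17.1 to 24.6 in the other groups. Col1a1 alone had 0 to 0.107 plain CPM in vehicle, H10 and H90 a, and 3.74 to 8.63 in the other libraries. Pdgfrb and Vim gave most of the rest, while Col1a2, Col3a1, Dcn, Lum and Pdgfra reached at most 0.401. The 8 neuronal and glial markers summed to 18.6 to 23.1 plain CPM in vehicle and 26.0 to 44.8 in the pools, mostly from Ret. The libraries also split into 2 sets that the labels do not name. Mup20, a urinary protein made in liver, had 23.0 to 35.9 plain CPM in 7 libraries (vehicle, H10 and H90 a), while the 8 libraries of M10, M90 and H90 b and c had 0.356 to 0.583. H90 a also had 14143 plain CPM of the ribosomal precursor Rn45s, against 1739 to 3215 elsewhere. H10 and vehicle thus share a set, as do M10 and M90, while M10 and M90 can be separated from the set only through the 3 H90 libraries. A term for the set in the model therefore rests on H90 a against H90 b and c, for every gene.

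RefSeq promoter windows on GRCm38.p6 were matched for 8 of the 10 genes, 9 windows in all, since Dclk1 has 2 starts 219364 bases apart. The 4 stretches below belong to Dclk1, Trpm5 and Avil, the members that rose in most pools. They run from 150 bases before the start to 20 bases after it, read 5′ to 3′ on the gene's strand. Capitals mark a CCAAT box in either direction. The genomic positions are chr3:55242214-55242383 (plus strand) and chr3:55461578-55461747 (plus) for Dclk1, chr7:143094623-143094792 (minus) for Trpm5 and chr10:127000559-127000728 (plus) for Avil.
Dclk1, upstream start: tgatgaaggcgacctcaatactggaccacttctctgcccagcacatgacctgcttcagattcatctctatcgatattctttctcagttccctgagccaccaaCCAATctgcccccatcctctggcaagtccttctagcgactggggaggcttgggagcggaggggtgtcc
Dclk1, downstream start: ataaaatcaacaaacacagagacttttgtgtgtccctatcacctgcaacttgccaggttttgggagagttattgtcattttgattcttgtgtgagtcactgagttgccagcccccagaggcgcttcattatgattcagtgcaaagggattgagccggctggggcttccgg
Trpm5: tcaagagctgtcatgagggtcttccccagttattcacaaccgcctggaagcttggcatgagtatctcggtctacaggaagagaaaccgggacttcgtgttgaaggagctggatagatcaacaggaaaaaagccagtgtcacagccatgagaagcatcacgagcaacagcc
Avil: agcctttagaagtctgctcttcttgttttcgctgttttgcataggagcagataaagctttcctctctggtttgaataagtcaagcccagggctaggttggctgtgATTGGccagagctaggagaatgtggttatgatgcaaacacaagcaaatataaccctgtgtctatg
A set of 6 motifs was searched on both strands of the 300-base windows, from 250 bases before to 50 after the start. The octamer ATGCAAAT, the sequence POU factors such as POU2F3 bind, was in none of the 9 windows and in 1.74% of all 32851 windows. The GFI1 core AAATCAC (3.2% of all windows), the inverted repeat of AGGTCA with 1 base between, which the bile acid receptor FXR binds (0.00913%), and the TATA box TATAAA (13.6%) were not found either. CCAAT, held by 37.4% of all windows, was found at the upstream Dclk1 start and at Avil, Gfi1b and Gnat3. The GC box GGGCGG, held by 35.7%, was found at Alox5, Il17rb and Gfi1b. Trpm5, Ptgs1 and the downstream Dclk1 start had none of the motifs. GC content was 42.0% at Gnat3 and 43.0% at Avil, 53.0% at Trpm5 and 72.0% at Il17rb, with a median of 52.7% over all windows.

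Per kilobase of exon, Avil and Trpm5 were the most abundant members in vehicle-treated organoids, with 4.20 ± 0.584 and 3.40 ± 0.0954 CPM per kb (mean ± SD, n = 3). This order depends on the length, taken as all annotated exons of a gene merged: 3398 bases for Avil, 6398 for Trpm5 and 15296 for Dclk1. Without division by length Dclk1 was highest, with vehicle means of 33.8 CPM against 21.7 for Trpm5 and 14.3 for Avil. Their vehicle ranges did not overlap, at 3.82 to 4.87 for Avil and 3.31 to 3.50 for Trpm5. Dclk1 followed with 2.21 ± 0.190 CPM per kb and Pou2f3 with 1.93 ± 0.172, and the ranges of this pair overlapped. Ptgs1 (1.11 to 1.28) and Il17rb (1.05 to 1.19) overlapped as well. Gfi1b (0.280 to 0.478), Alox5 (0.241 to 0.366), Gnat3 (0.0428 to 0.253) and Il25 (0.0642 to 0.219) each overlapped their neighbour in the order. In CPM, not corrected for length, the 10 genes together took 86.8 ± 4.22 in vehicle (n = 3), of which Dclk1 gave most. Averaged over the 15 libraries, Dclk1 made up 40.0% of the sum, Trpm5 26.4% and Avil 16.0%. With the human-modelled pools the sum was 124 ± 4.11 (H10) and 122 ± 17.6 CPM (H90), and with the mouse-modelled pools 149 ± 6.27 (M10) and 149 ± 6.56 CPM (M90). Every pool library had a higher sum (104.8 to 155.7 CPM) than every vehicle library (81.9 to 89.5). In bulk RNA, more tuft cells and more of these transcripts per cell cannot be told apart.

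**Figure D1:**
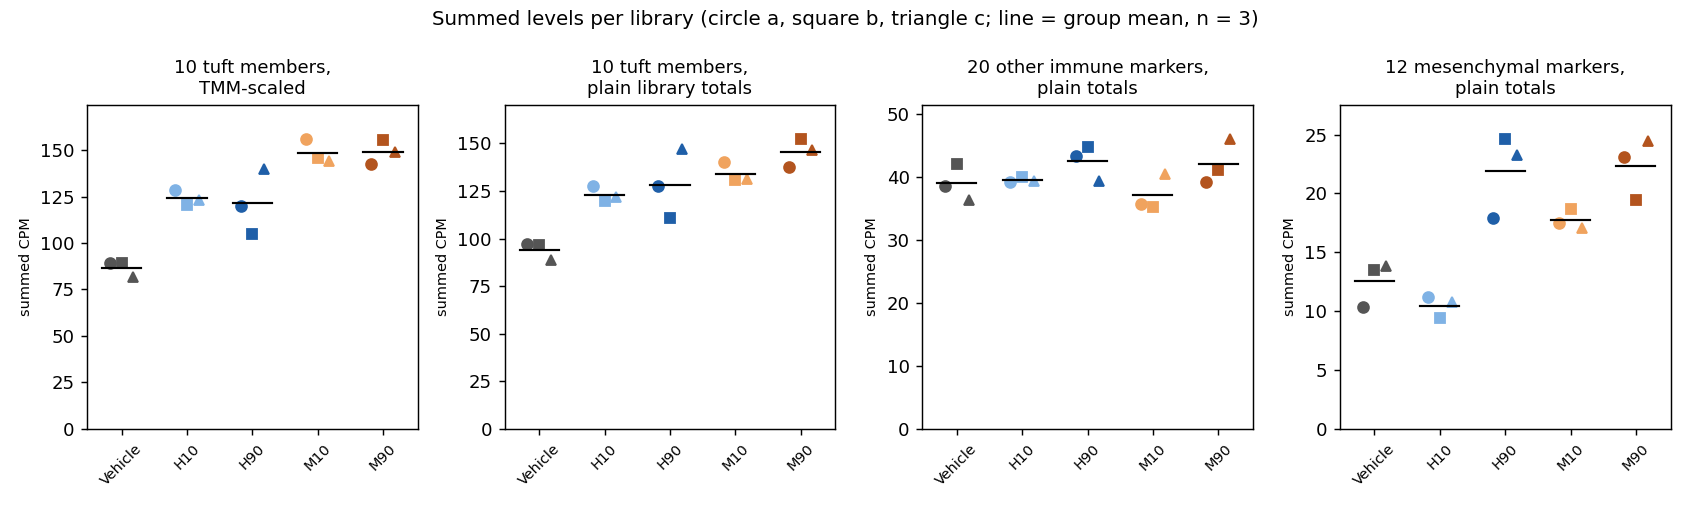
Summed CPM per library (points; circle, square and triangle for replicates a, b and c) for the 10 tuft genes on TMM-scaled and on plain library totals, for 20 markers of other immune cells and for 12 mesenchymal markers, with the group mean as a line (n = 3). The tuft sum is above vehicle in all 12 pool libraries on both scales (plain 110.8 to 152.1 against 88.5 to 97.2 CPM). The immune sum, mostly Kit, Cd14 and Itgam, lies between 35.2 and 46.0 in all groups.

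The first comparison set the mean of the 4 pools against vehicle, which asks what the pools have in common. Of the 10 members 9 passed the filter on low counts, and 4 of these rose and none fell: Dclk1, Trpm5, Avil and Ptgs1. All tests are edgeR quasi-likelihood tests with Benjamini-Hochberg adjustment over 13159 genes, and a gene rose or fell where the adjusted p was under 0.05. By that rule 27.7% of all tested genes were higher on the mean of the pools and 30.3% were lower. The median log2 difference of the 9 members was 0.60 and that of all tested genes -0.01. The other 5 tested members had positive log2 differences that did not pass. Of the 9, only Dclk1 and Trpm5 had all 12 pool libraries above all 3 vehicle libraries, which held upward for 11.2% of all tested genes.

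**Figure D2:**
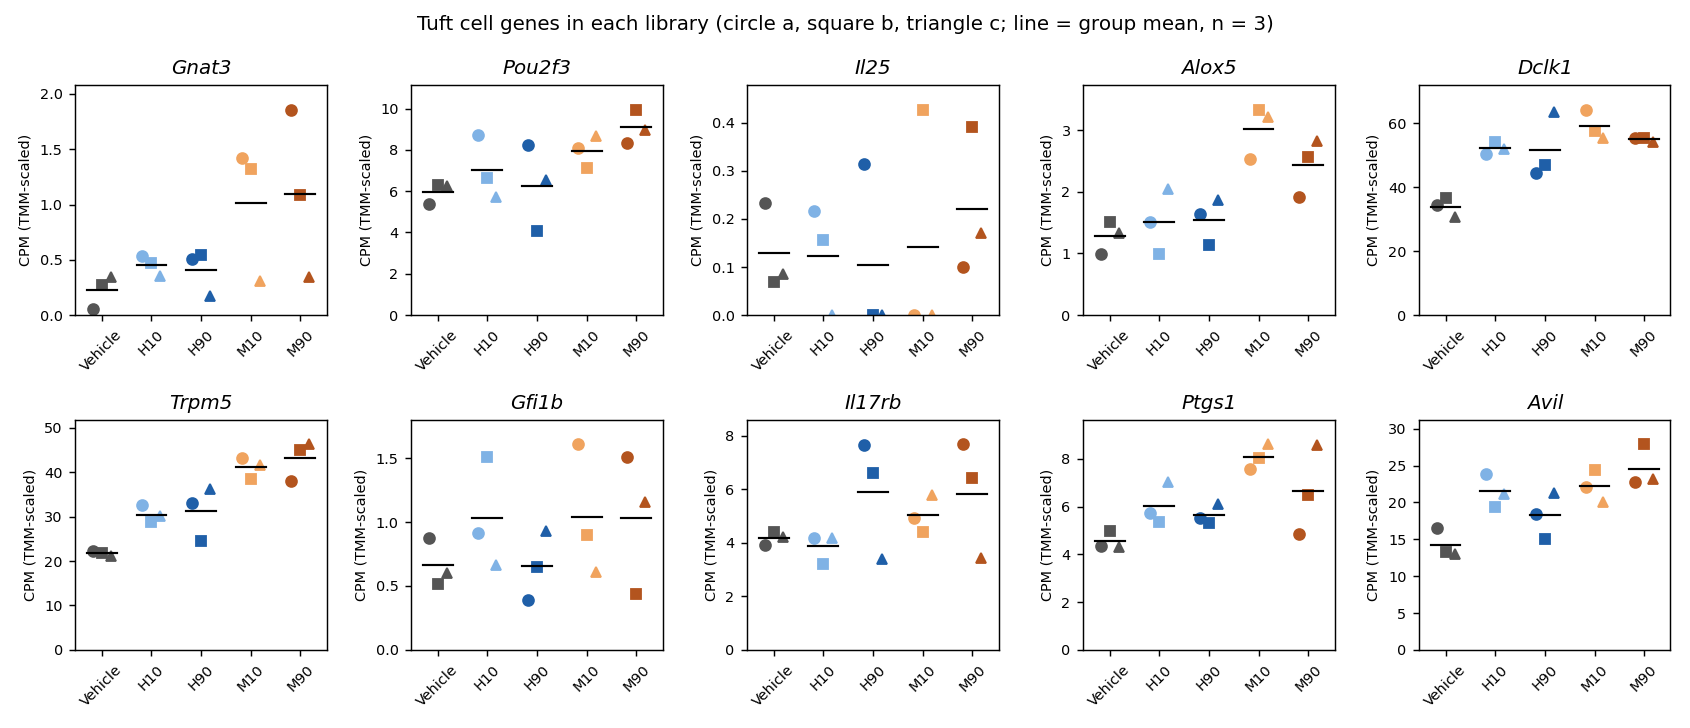
TMM-scaled CPM (vertical axis, from 0, with its own scale per gene) of each of the 10 genes in each of the 15 libraries (circle a, square b, triangle c), with the group mean as a line (n = 3). Dclk1 and Trpm5 show every pool library above vehicle, and Gnat3, Il17rb and Il25 show replicates of one pool far apart.

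Against vehicle, 3 of 9 members rose in H10, where 24% of all tested genes were higher and 24.5% lower. In H90 2 members rose (11.7% of all genes higher, 9.86% lower). In M10 6 rose (31.2% higher, 33.3% lower), and in M90 7 did (26.2% higher, 28.5% lower). None of the 9 fell in any pool. The 4 comparisons share the same 3 vehicle libraries. Dclk1 and Trpm5 rose in each pool and Avil in H10, M10 and M90. Alox5, Ptgs1 and Gnat3 rose in M10 and M90, and Pou2f3 in M90. The 9 members had a median log2 difference of 0.49 for H10 and 0.35 for H90, and of 0.80 for M10 and 0.70 for M90. Without vehicle a, 3 members rose in M90, and without M90 b, 4 did. With library size as the only scaling 4 rose in M90. With the library set as a term in the model, 4 members rose in M10 and 3 in M90. Pou2f3 was then added in M10, and the differences of Alox5, Ptgs1 and Gnat3, and of Dclk1 in M90, which no longer passed, are given with each gene.

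**Figure D3:**
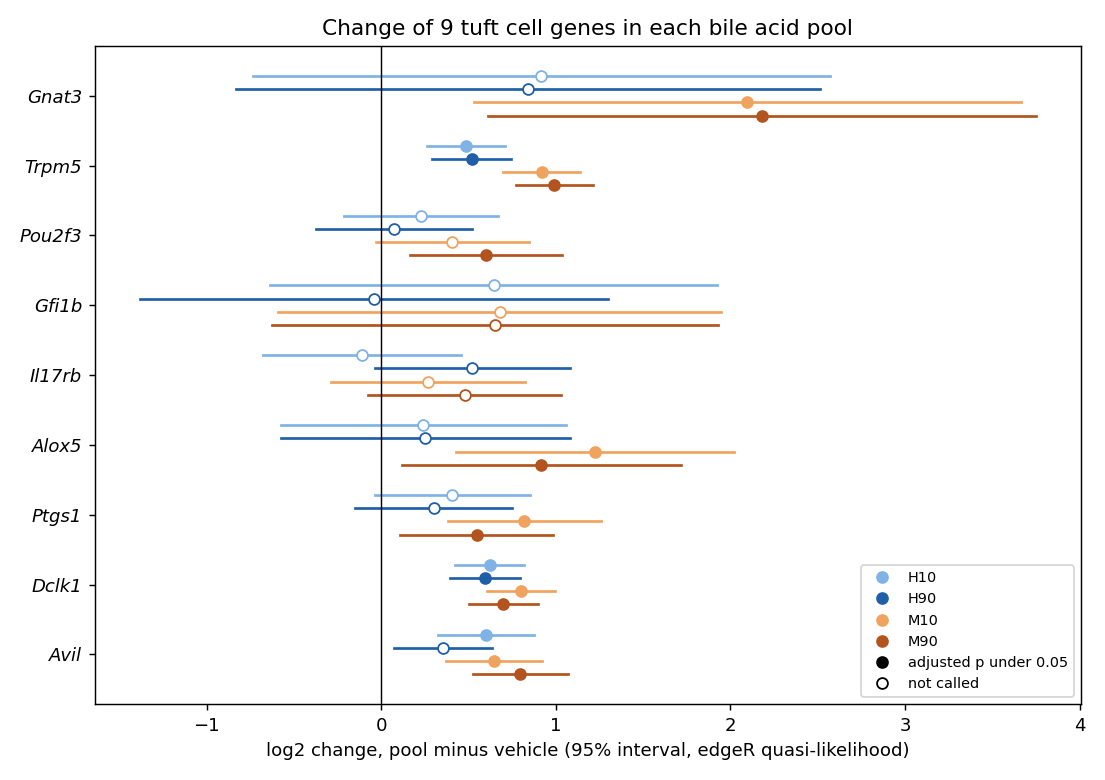
The log2 difference of each pool from vehicle (horizontal axis) for the 9 tested genes, with 95% intervals from the edgeR fit and filled points where the adjusted p was under 0.05. Intervals are short for Dclk1, Trpm5 and Avil and long for Gfi1b and Gnat3, and filled points are more frequent for M10 (6) and M90 (7) than for H10 (3) and H90 (2).

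Trpm5 (chromosome 7, 143069153 to 143094642, minus strand, GRCm38) had 22.4, 21.7 and 21.2 CPM in vehicle a to c. It had 32.6, 28.7 and 30.1 CPM in H10 and 33.2, 24.5 and 36.1 in H90. The mouse-modelled pools gave 43.3, 38.4 and 41.6 CPM in M10 and 38.1, 45 and 46.3 in M90. Vehicle was lowest and varied least, the human-modelled pools lay between, and both M pools were above every H10 and H90 library. Against vehicle the channel's transcript was 1.40-fold higher in H10 (log2 0.49, SE 0.111, adjusted p = 0.000343) and 1.43-fold in H90 (0.52, SE 0.112, adjusted p = 0.00061). It was 1.89-fold higher in M10 (log2 0.92, SE 0.109, adjusted p = 2.40e-09) and 1.99-fold in M90 (0.99, SE 0.109, adjusted p = 7.52e-10). Trpm5 shares 220 exon bases, 3.44% of its exon length, with Tssc4 on the opposite strand. The strand setting of the counting is not given, so reads from that overlap cannot be told apart. Tssc4 itself fell on the mean of the pools (log2 -0.40, adjusted p = 0.00164).

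Gnat3 (chromosome 5, 17962549 to 18019834, plus strand) was close to the detection limit, with 1, 8 and 8 counts in vehicle. It passed the low-count filter through pool libraries and not through vehicle. H10 gave 10, 9 and 9 counts and H90 13, 10 and 2. M10 gave 37, 31 and 6 counts and M90 37, 25 and 8. Replicates a and b of both M pools were high, at 1.09 to 1.86 CPM, while replicate c had 0.306 CPM in M10 and 0.342 in M90, within the vehicle range of 0.0583 to 0.344. The group differences passed the test for M10 (log2 2.10, SE 0.772, adjusted p = 0.0174) as well as for M90 (2.18, SE 0.774, adjusted p = 0.0166). On the mean of the pools the log2 difference was 1.51 (SE 0.672, adjusted p = 0.0532). These calls rest on few counts: they were lost without vehicle a (adjusted p = 0.0906 in M10 and 0.0877 in M90), without M10 a (0.0759 in M10) or M10 b (0.0581), and without M90 a (0.158 in M90). By limma-voom the M90 call was lost as well (adjusted p = 0.0503). With the library set as a term the log2 differences were 2.52 in M10 and 2.60 in M90, and neither passed (adjusted p = 0.138 and 0.157).

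Dclk1 (chromosome 3, 55242364 to 55539068, plus strand) had 34.3, 36.4 and 30.7 CPM in vehicle a to c. It had 50.3, 54.0 and 52.0 CPM in H10, 44.3, 46.9 and 63.6 in H90, 64.2, 57.4 and 55.2 in M10 and 55.4, 55.4 and 54.2 in M90. All 12 pool libraries were above vehicle, M10 and M90 lay just above H10. H90 a and b were the lowest pool libraries, while H90 c was among the highest. The kinase's transcript was 1.54-fold higher in H10 (log2 0.62, SE 0.0971, adjusted p = 1.54e-06) and 1.51-fold in H90 (0.59, SE 0.0982, adjusted p = 1.83e-05). It was 1.74-fold higher in M10 (0.80, SE 0.0964, adjusted p = 4.96e-09) and 1.62-fold in M90 (0.70, SE 0.0967, adjusted p = 1.47e-07). H10 and vehicle share a library set, so the rise in H10 is measured within it. With the set as a term the log2 difference was 0.49 in M10 (adjusted p = 0.0124) and 0.39 in M90, where the call was lost (adjusted p = 0.065). The counts are per gene, so reads from the upstream and downstream starts are not separated.

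Avil (chromosome 10, 127000709 to 127020994, plus strand) had 16.5, 13.3 and 13 CPM in vehicle. It had 23.9, 19.4 and 21.2 CPM in H10, 18.4, 15.1 and 21.2 in H90, 22.1, 24.3 and 20.1 in M10 and 22.8, 27.9 and 23.2 in M90. H90 b lay inside the vehicle range, and the other 11 pool libraries lay above it. Advillin's transcript rose 1.52-fold in H10 (log2 0.60, SE 0.135, adjusted p = 0.000309), 1.57-fold in M10 (0.65, SE 0.135, adjusted p = 7.17e-05) and 1.74-fold in M90 (0.80, SE 0.134, adjusted p = 4.25e-06). In H90 the log2 difference was 0.35 (95% interval 0.08 to 0.63, adjusted p = 0.0614), and it passed without H90 b (0.47, adjusted p = 0.0196), without vehicle a (0.47, adjusted p = 0.0292) and by DESeq2 (adjusted p = 0.0486). Avil shares 165 exon bases, 4.86% of its length, with Tsfm on the opposite strand, and Tsfm fell on the mean of the pools (log2 -0.93, adjusted p = 2.42e-08).

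Ptgs1 (chromosome 2, 36230426 to 36252272, plus strand) had 4.37, 4.99 and 4.30 CPM in vehicle. It had 5.71, 5.35 and 7.02 CPM in H10 and 5.52, 5.31 and 6.09 in H90. It had 7.58, 8.03 and 8.61 CPM in M10 and 4.87, 6.47 and 8.60 in M90. Every library of H10, H90 and M10 was above vehicle, while M90 a fell inside the vehicle range. Cyclooxygenase 1 rose 1.77-fold in M10 (log2 0.82, SE 0.216, adjusted p = 0.00115) and 1.46-fold in M90 (0.55, SE 0.217, adjusted p = 0.0325). In H10 (log2 0.41, adjusted p = 0.127) and H90 (0.30, adjusted p = 0.375) it did not pass. The M90 call was lost without vehicle a or c and without M90 b or c, with adjusted p from 0.0571 to 0.290. The call on the mean of the pools (log2 0.52, SE 0.177, adjusted p = 0.0122) was lost without vehicle a (0.0524) or vehicle c (0.0621). With the library set as a term the log2 differences were 0.78 in M10, 0.51 in M90 and 0.49 on the mean, and none passed (adjusted p = 0.103, 0.358 and 0.161).

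Alox5 (chromosome 6, 116410077 to 116461178, minus strand) was low in vehicle, at 0.990, 1.5 and 1.33 CPM. It had 1.51, 0.988 and 2.04 CPM in H10 and 1.64, 1.14 and 1.86 in H90, which overlapped vehicle. M10 gave 2.53, 3.33 and 3.21 CPM and M90 1.91, 2.56 and 2.82, all above vehicle. 5-lipoxygenase rose 2.34-fold in M10 (log2 1.22, SE 0.392, adjusted p = 0.00653) and 1.89-fold in M90 (0.92, SE 0.394, adjusted p = 0.0474). The M90 call sat at the threshold and was lost when any vehicle library, H10 a, M90 b or M90 c was left out (adjusted p = 0.0518 to 0.144). It was also lost by limma-voom (0.0554), with a block for the replicate letters (0.0565), without the filter (0.0654) and with library size as the only scaling (0.0953). With the library set as a term the M10 and M90 calls were lost (adjusted p = 0.110 and 0.267), though the log2 differences were 1.38 and 1.08. In H10 (log2 0.24, adjusted p = 0.662) and H90 (0.25, adjusted p = 0.724) it did not pass.

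Pou2f3 (chromosome 9, 43123939 to 43210369, minus strand) had 5.36, 6.32 and 6.23 CPM in vehicle. It had 8.73, 6.65 and 5.72 CPM in H10, 8.22, 4.07 and 6.52 in H90, 8.08, 7.13 and 8.66 in M10 and 8.34, 9.95 and 8.98 in M90. H10 and H90 spread across the vehicle range, and M10 and M90 lay above it. The lineage factor rose 1.52-fold in M90 (log2 0.60, SE 0.215, adjusted p = 0.0171), a call lost without vehicle a (0.0650) or M90 b (0.0722). That call was also lost with library size as the only scaling (log2 0.45, adjusted p = 0.0710). In M10 the log2 difference was 0.41 (95% interval -0.03 to 0.84, adjusted p = 0.0964), which did not pass. With the library set as a term the differences were larger and passed, at 1.07 in M10 (adjusted p = 0.0166) and 1.26 in M90 (0.00752). On the mean of the pools the difference was 0.75 with the term (adjusted p = 0.0177) and 0.33 without it (0.108). The term is set by H90 a against H90 b and c alone, so the larger values rest on H90 a. In H10 (0.23) and H90 (0.07) Pou2f3 did not pass (adjusted p = 0.422 and 0.859). Gfi1b (chromosome 2, 28609450 to 28621982, minus strand) had 10 to 42 counts per library. Vehicle had 0.663 ± 0.188 CPM (SD, n = 3, as for the next values), H10 1.03 ± 0.432, H90 0.658 ± 0.270, M10 1.04 ± 0.513 and M90 1.03 ± 0.547. The groups overlapped and no pool passed (adjusted p = 0.351 to 0.974). The 95% interval in M90, -0.63 to 1.93 on the log2 scale, holds both a fall and a rise.

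Il25 (chromosome 14, 54932695 to 54935837, plus strand) gave 48 counts in the 15 libraries together and did not pass the filter. It had 4, 2 and 2 counts in vehicle, 4, 3 and 0 in H10, 8, 0 and 0 in H90, 0, 10 and 0 in M10 and 2, 9 and 4 in M90. The 5 libraries at 0 allow up to 0.115 to 0.254 CPM, taking 3 counts as the limit for counting error only, and a difference was not detectable at this depth. Its receptor gene Il17rb (chromosome 14, 29996135 to 30008896, minus strand) had 3.9, 4.41 and 4.21 CPM in vehicle and 4.20, 3.22 and 4.20 in H10. It had 7.67, 6.62 and 3.39 CPM in H90, 4.94, 4.40 and 5.80 in M10 and 7.69, 6.43 and 3.42 in M90. Replicates a and b of H90 and M90 were high and replicate c was below vehicle in both. No pool passed against vehicle (adjusted p = 0.140 to 0.784). Without H90 c the gene passed in H90 (log2 0.77, adjusted p = 0.04) and without M90 c in M90 (0.75, adjusted p = 0.0238). Il17rb shares 141 exon bases, 3.8% of its length, with Actr8 on the opposite strand, which fell on the mean of the pools (log2 -0.22, adjusted p = 0.0225).

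The share of 12HBA was compared within each species model. H90 b and c lie in another library set than H10, so H90 against H10 and the interaction below are partly mixed with the set. M10 and M90 share a set. None of the 9 tested members passed between H90 and H10 (36.6% of all genes did) or between M90 and M10 (41.2%). At an unadjusted p under 0.05 there were 1 (Il17rb) and 0, and DESeq2 and limma-voom called 0 in each as well. For Dclk1 the log2 difference was -0.03 between H90 and H10 (95% interval -0.23 to 0.17) and -0.10 between M90 and M10 (-0.29 to 0.09). For Trpm5 it was 0.03 (-0.19 to 0.26) and 0.07 (-0.14 to 0.28). These intervals are narrow, while those of the scarce genes are wide, as for Gnat3 between M90 and M10 (-1.30 to 1.47). Il17rb was the nearest to passing, with 0.63 between H90 and H10 (0.07 to 1.19, adjusted p = 0.0726), and it passed without H90 c (0.88, adjusted p = 0.00928). It also passed with the set as a term (0.98, adjusted p = 0.0355) and with library size as the only scaling (0.73, adjusted p = 0.0362). The interaction, which asks whether the effect of the share differs between the models, passed for none of 9 members (14.8% of all genes did), for 1 at an unadjusted p under 0.05 (Avil, 0.39, adjusted p = 0.168), and for none by DESeq2 or limma-voom.

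The species models were compared at equal 12HBA share. M10 was above H10 for 2 of 9 members (18.2% of all genes were higher), Trpm5 (log2 0.43, SE 0.107, adjusted p = 0.00141) and Alox5 (0.98, SE 0.389, adjusted p = 0.0450). M90 was above H90 for 2 of 9 (19.2% of all genes), Trpm5 (0.47, SE 0.108, adjusted p = 0.000546) and Avil (0.44, SE 0.134, adjusted p = 0.00814). M10 and H10 lie in different library sets, as do M90 and 1 of the H90 libraries. With the set as a term Trpm5 passed in both comparisons (0.58, adjusted p = 0.038, and 0.53, adjusted p = 0.00104). The term is set by H90 a against H90 b and c, and H90 is on neither side of M10 against H10. For M90 against H90 the term comes close to leaving H90 a out. The Trpm5 differences passed with each library left out in turn. The Alox5 call was lost without H10 a or b, M10 b or c, or M90 b or c (adjusted p = 0.0542 to 0.192). With the set as a term the Alox5 difference was 1.14 and did not pass (adjusted p = 0.300). Nor did it pass with library size as the only scaling (0.0790) or without the filter (0.0602). The Avil call was lost without H90 b (0.0781) or M90 b (0.0813). Pou2f3 differed by 0.53 between M90 and H90 (95% interval 0.09 to 0.97, adjusted p = 0.0520), just short of passing. With 1 library left out it ran from 0.29 to 0.81, and it passed without H90 a (adjusted p = 0.00822), M10 b (0.0485) or M10 c (0.0458). It also passed with RLE scaling (0.0465), without the filter (0.0446), by DESeq2 (0.0401) and by limma-voom (0.0413). With library size as the only scaling it did not pass (0.41, adjusted p = 0.130). With the set as a term Pou2f3 differed by 0.81 (adjusted p = 0.00846), close to the fit without H90 a and so no separate check. Dclk1 did not pass in either comparison, with intervals of -0.01 to 0.37 between M10 and H10 and -0.09 to 0.30 between M90 and H90. Its difference between M90 and H90 was 0.11, and without H90 c it was 0.27 and passed.

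Other genes tied to tuft cells were read from 5 lists of 71 genes, of which 69 were in the files and 61 were tested. On the mean of the pools 31 of the 61 rose and 9 fell, with a median log2 difference of 0.49, while of all tested genes 27.7% were higher and 30.3% lower. Against vehicle 24 rose and 10 fell in H10 (all genes 24% and 24.5%), 13 and 5 in H90 (11.7% and 9.86%), 31 and 9 in M10 (31.2% and 33.3%) and 28 and 7 in M90 (26.2% and 28.5%). Of the 61, 10 had over 100 CPM in vehicle, levels that include other epithelial cells, and among the 51 others 26 rose and 5 fell (median 0.52). Of 10 tested genes of the taste-type cascade 4 rose and 1 fell. Plcb2, the phospholipase upstream of TRPM5, had 4.48 ± 0.663 CPM with vehicle, 5.89 ± 0.779 with H10, 5.64 ± 0.418 with H90, 7.96 ± 0.563 with M10 and 8.83 ± 1.41 with M90 (SD, n = 3 each). Over the pools together it was higher by 0.64 on the log2 scale (SE 0.170, adjusted p = 0.0014). Trpm4, a channel related to TRPM5, rose from 183 ± 1.44 to group means between 234 and 285 CPM (log2 0.53, adjusted p = 4.66e-15), and Rgs13, a regulator of G protein signalling, rose by 0.39. Itpr3, the calcium release channel of the cascade, fell (log2 -0.41, adjusted p = 2.90e-10). Trpm4 and Itpr3 (183 and 228 CPM in vehicle) are among the genes over 100 CPM, whose levels include other epithelial cells. So are Lta4h (294) and Stat6 (186) of the lists below.

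Of 7 tested eicosanoid genes 3 rose and 2 fell, where 27.7% of all tested genes were higher and 30.3% lower. Alox5ap, the partner protein of 5-lipoxygenase, had 2.14 ± 0.348 CPM with vehicle (SD, n = 3 in each group), 3.42 ± 0.686 with H10, 4.52 ± 1.71 with H90, 5.09 ± 1.01 with M10 and 5.82 ± 0.862 with M90. For the pools together the log2 difference was 1.11 (SE 0.239, adjusted p = 0.000133). Ptgs2, the inducible cyclooxygenase, had 0.531 ± 0.211 CPM with vehicle, 2.96 ± 1.10 with H10, 1.29 ± 0.433 with H90, 4.55 ± 0.447 with M10 and 1.88 ± 0.697 with M90, and rose for the pools together (log2 2.15, SE 0.385, adjusted p = 9.71e-06). The phospholipase Pla2g4a, which frees arachidonic acid, fell from 12.2 ± 0.716 CPM with vehicle to means of 3.80 (H10), 8.03 (H90), 3.61 (M10) and 4.67 (M90), with all pools together below vehicle (log2 -1.36 over the pools, adjusted p = 1.15e-09), and the leukotriene A4 hydrolase Lta4h fell (-0.18, adjusted p = 4.07e-05). Of 10 tested transcription factors 3 rose and 3 fell, a split close to that of all tested genes. Spib, an ETS factor, rose from 11.6 ± 0.351 CPM to group means between 16.2 and 21.7 in the pools (log2 0.66, adjusted p = 4.25e-06), and Atoh1, the secretory lineage factor, rose (0.997, adjusted p = 2.56e-09). Sox9 and Sox4, which are also expressed in crypt progenitors, fell (log2 -1.24 and -1.45, adjusted p = 6.57e-14 and 1.27e-11). Of 5 tested genes of the cytokine circuit, Il13ra1 (0.54, adjusted p = 2.21e-11) and Il4ra (0.31, adjusted p = 0.00021), receptor chains for type 2 cytokines, rose and Stat6, which they activate, fell (-0.18, adjusted p = 0.000661). Il13 and Il4 had 0 counts in all libraries and Tslp 17 counts in all. The remaining signature list had 19 of 29 tested genes higher and 2 lower. Those with the smallest adjusted p were Vil1 (log2 0.54), Kctd12 (0.73), Ildr1 (0.73) and Anxa4 (0.31), all higher. Vil1 and Anxa4 had 1590 and 1838 CPM in vehicle, levels that include other epithelial cells. Ildr1 had means of 129 CPM in M10 and 43.2 in H90, against 40.7 in vehicle.

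**Figure D4:**
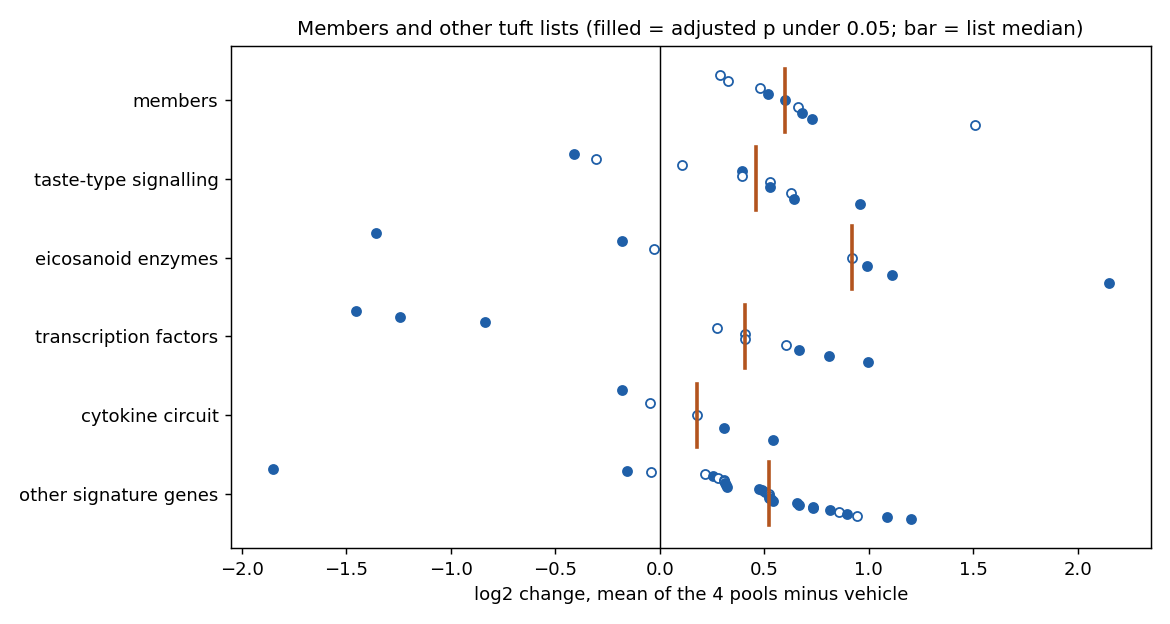
The log2 difference between the mean of the 4 pools and vehicle (horizontal axis) for each tested gene of the member list and of 5 other tuft lists, filled where the adjusted p was under 0.05, with the list median as a bar. Medians are 0.60 for the members, 0.46 for taste-type signalling, 0.92 for eicosanoid genes, 0.41 for transcription factors, 0.18 for the cytokine circuit and 0.52 for other signature genes.

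Most markers of enteroendocrine and goblet cells were higher with the pools too. Of 26 enteroendocrine genes on average over the pools 17 rose and 1 fell, with a median log2 difference of 0.64, and of 16 goblet genes 13 rose and 1 fell (median 0.998). Of all tested genes 27.7% were higher and 30.3% lower. The members' median of 0.60 lies below both, and the difference between the lists was not tested. In M10 the goblet median was 1.58, the enteroendocrine median 0.73 and that of the tuft members 0.80. A group of 5 genes outside the tuft lists, each with a mean of at least 1 CPM, followed the mean standardized log2 CPM of the 9 tested members most closely over the 15 libraries. They were Mast2 (Pearson r 0.977), H2-K2 (0.975), Vamp2 (0.965), Entpd8 (0.963) and Klhdc3 (0.963), out of 11745 genes compared. These values describe libraries that share treatment and set, and after removal of the group means r was 0.741, 0.745, 0.557, 0.248 and 0.699. H2-K2 has near-identical relatives in the MHC, so its counts are uncertain.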

How the data were processed

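RNA of 15 libraries of ileal organoids, in 5 groups of 3, was sequenced after poly-A selection and TruSeq preparation, per the labels' protocols. The authors deposited counts of reads by gene symbol, 1 file per library and not normalized. STAR 2.5.2b (aligner), featureCounts 1.5.0-p3 (counter), bcl2fastq 2.17 and the build mm10 (GRCm38) are named, per the submitters' processing notes. How strand and multimapping reads were handled and which annotation was used are not given in the sources used here.

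Genes were kept by filterByExpr (13159 of 23420), scaled by TMM and tested with edgeR 4.0.16 quasi-likelihood F tests (robust, two-sided, R 4.3.3) on 1 model of 5 group means. The main design has no replicate block. Standard errors and 95% intervals come from the F values. Exon lengths and positions are from GENCODE vM21, and promoters from RefSeq on GRCm38.p6. Plain CPM divide by the library total alone, and 1 count was worth 0.0345 to 0.0889 plain CPM. The script was tested on simulated data.

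The members and lists were chosen with earlier results of these data known. Of each other tuft list, up to 4 genes with the smallest adjusted p on the mean of the pools were named, and the 5 genes of highest correlation with the members. Tssc4, Tsfm and Actr8 were named for their overlap. Alternatives were RLE and library size scaling, no low-count filter, at least 1 CPM in 3 libraries, DESeq2 1.42.0, limma-voom (limma 3.58.1), the groups of a contrast alone, a replicate block, the library set as a term, and leaving out each library. Nothing in the labels says that letters a to c pair libraries. Figures used python 3.11.15 and matplotlib 3.10.9.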

Additional observations from a re-analysis of the deposited data

How the results depend on the processing

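The number of members that passed stayed within 1.5 times the reported number under the alternatives, except as follows. In M90 against vehicle (7 reported) it was 4 with library size as the only scaling, 3 with the library set as a term and 3 to 7 with 1 library left out. Between H90 and H10 (0 reported) it was 1 with library size scaling, 1 with the set term and 0 to 1 with 1 library left out, in each case Il17rb. Between M10 and H10 (2 reported) it was 1 with library size scaling, 1 without the filter, 1 with the set term and 1 to 2 with 1 library left out. Between M90 and H90 (2 reported) it was 1 to 3 with 1 library left out, falling to 1 without H90 b or M90 b. On the mean of the pools DESeq2 called 6 members and limma-voom 4, against 4 reported. No called difference of a member changed sign.

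Some uncalled differences did. Gfi1b turned negative with the set term, to -0.18 on the mean of the pools, -0.30 in M10 and -0.33 in M90. With 1 library left out, Gfi1b in H90 ran from -0.34 to 0.25, Pou2f3 in H90 from -0.21 to 0.31, Alox5 in H10 from -0.047 to 0.47 and Il17rb in H10 from -0.17 to 0.0040. The cause was not tested. Library size scaling moved the median of all tested genes on the mean of the pools from -0.01 to -0.16, and turned no member's direction against vehicle. With it, 30.8% of 8034 calls were higher, against 3640 higher and 3985 lower in the reported fit.

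With a replicate block for letters a to c, 4 members passed for the pools together, 3 for H10, 2 for H90, 6 for M10 and 6 for M90, and 3 between M90 and H90, where Pou2f3 was added (0.56, adjusted p = 0.0424). Correlations of residual profiles ran from -0.0237 to 0.0829 for libraries of a shared letter and from -0.0579 to 0.05 for other letters. The median was 0.00499 over the 30 pairs of a shared letter and -0.00305 over the 60 pairs of other letters. For 11 of 15 libraries the best correlation was with a library of the same letter, though other letters gave more of the pairs. Libraries of a shared letter were thus somewhat more alike, and the negative values among them do not show that the letters are unrelated. The main design leaves the block out only because the labels state no pairing. The fit of a contrast's own groups cannot be set apart for the mean of the pools, which uses all groups. Depth limits Il25, Gnat3 and Gfi1b most.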
